A study of Rattus norvegicus with 6 samples.

Results

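The enzymes that make haem and break it down were followed through 9 of their genes in rat liver after a brominated flame retardant: Alas1, Alad, Uros, Urod, Cpox and Fech of synthesis, and Hmox2, Blvra and Blvrb of breakdown. The members were listed by name, and each was found on the array through the RefSeq accession that its probes carry. All 9 genes had a probe, 13 probes in all, out of 15284 genes that could be named on the array. Livers came from male Sprague-Dawley rats given 2,2-bis(bromomethyl)-1,3-propanediol (BBMP) at 1000 mg/kg/day (n = 3) or corn oil (n = 3). All rats were bought at 5 weeks of age and kept on the same basal diet. The design text gives the time as 28 days and the treatment protocol gives 9 weeks. RNA of each whole liver sample was hybridised to its own 1-colour Agilent array.

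In hepatocytes, haem synthesis starts in the mitochondrion, where Alas1 joins glycine and succinyl-CoA in the rate-limiting step, continues in the cytosol through enzymes that include Alad, Uros and Urod, and returns to the mitochondrion for Cpox, Ppox and Fech, which inserts the iron. Much of the haem made in the liver goes into cytochromes P450, and drugs that activate the nuclear receptors CAR and PXR are known to raise Alas1 together with those cytochromes, while haem itself represses Alas1. Haem oxygenases open the ring to biliverdin, carbon monoxide and iron, and biliverdin reductases turn biliverdin into bilirubin.

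Levels are given as the log2 of an array's processed signal minus the log2 of that array's 75th percentile, so 0 means a signal equal to the 75th percentile, and a difference of 1 is 2-fold. They can be compared between livers for 1 probe, and not between probes. Between 60.1% and 64.4% of 61573 probes were well above background on each array; precision is limited by having 3 arrays a group. The BBMP arrays shared a slide and a scan that held no corn oil array, so these cannot be told apart from the treatment. On the leading principal component, with 32.9% of the variance, BBMP 1, BBMP 2 and BBMP 3 scored 27.47, 28.70 and 19.09. Corn oil 1 scored -9.60, corn oil 2 scored -50.84 and corn oil 3 scored -14.82. The component thus parted the groups, and with them the slides and scans, and corn oil 2 lay farthest out. Differences that moved by over 1.5 times without corn oil 2 are given without it as well. Of 10 hepatocyte markers, 10 were well above background in enough livers to be tested, and their summed signal was 5011 to 5702 times the 75th percentile in BBMP livers and 5694 to 5902 times in corn oil livers.

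The upstream DNA of Alas1, Fech and Uros is shown because the values below turn on these genes: Alas1 and Fech were high in the same BBMP livers, and Uros was the member with the smallest p. Each line holds the 250 bases before the annotated start in RefSeq's GRCr8 table, read 5′ to 3′ on the gene's strand. The Alas1 window is chr8:115768643-115768892, the Fech window chr18:60248526-60248775 and the Uros window chr1:197942229-197942478, all on the minus strand. Capitals mark matches to the NRF1 motif CGCANGCG or the GC box GGGCGG on either strand.
Alas1: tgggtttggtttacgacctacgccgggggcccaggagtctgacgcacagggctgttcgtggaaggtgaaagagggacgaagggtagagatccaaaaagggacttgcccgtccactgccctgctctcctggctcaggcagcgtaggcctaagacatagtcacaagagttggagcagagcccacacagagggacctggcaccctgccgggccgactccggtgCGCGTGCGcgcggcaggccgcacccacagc
Fech: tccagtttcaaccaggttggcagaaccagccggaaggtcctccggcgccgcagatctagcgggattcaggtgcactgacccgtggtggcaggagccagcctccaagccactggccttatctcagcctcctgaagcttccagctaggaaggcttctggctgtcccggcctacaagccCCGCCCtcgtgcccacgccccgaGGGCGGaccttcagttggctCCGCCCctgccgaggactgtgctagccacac
Uros: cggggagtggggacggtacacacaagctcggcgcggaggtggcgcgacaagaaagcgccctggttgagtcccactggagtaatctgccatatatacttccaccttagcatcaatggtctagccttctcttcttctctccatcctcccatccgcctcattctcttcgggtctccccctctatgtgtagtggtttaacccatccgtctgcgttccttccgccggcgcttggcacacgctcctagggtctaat

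The Alas1 window held 1 match to the NRF1 motif, 30 to 23 bases before the start. NRF1 is a transcription factor of nuclear genes for mitochondrial proteins. The motif occurred in 6.61% of 33469 windows of this length and in 1 of the 10 haem enzyme genes with a window. Fech held 3 GC boxes, 74 to 69, 51 to 46 and 31 to 26 bases before the start, a motif found in 30.5% of all windows and in 5 of the 10 genes. The Uros window held neither motif. The core recognised by many nuclear receptors, AGGTCA on either strand, occurred in 14.1% of all windows and in none of these 3. The motifs do not overlap in these windows, and a match describes the letters and is not evidence of binding. No window was used for Cpox.

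No member passed the test of BBMP against corn oil, and the largest difference, that of Alas1, came from some of the treated livers and not all. Limma was fitted on 28112 features with Benjamini-Hochberg adjustment over all of them. Of the 9 members 0 passed an adjusted p of 0.05, a threshold that 2 features in all passed (0.00711%). At an unadjusted p under 0.05 there were 2 members, Uros higher and Cpox lower, where the same p was reached by 10.8% of all features, 4.7% higher and 6.1% lower. The same 2 members had groups that did not overlap, as did 17.9% of all features, 8.25% higher and 9.6% lower. Both counts are 22.2% of the members, that is 2 genes. The median difference over the members was 0.11, against -0.01 over all features, with 5 members higher and 4 lower, where 47.5% of all features were higher. BBMP 3 was the lowest BBMP liver for Alas1, Fech, Urod and Hmox2, 4 of the members, as it was for 37.5% of all features. The median within-group SD of the members was 0.11, against 0.18 over all features, and Alas1, Fech and Blvra varied more than that of all features, at 0.71, 0.25 and 0.23.

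**Figure D1:**
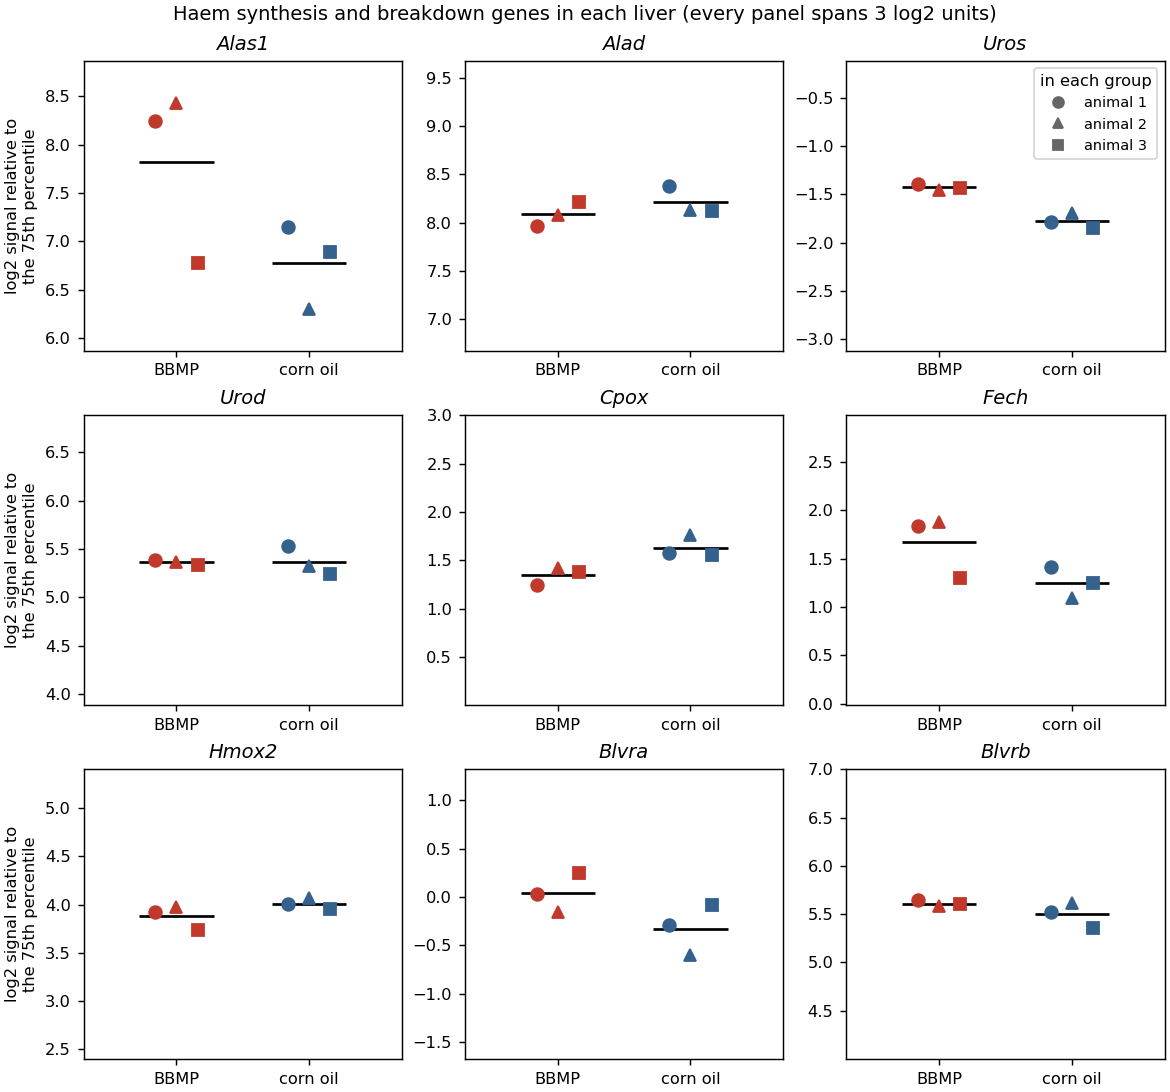
Log2 signal relative to the array's 75th percentile for the 9 genes, BBMP livers left and corn oil livers right; symbols are the animals numbered in each group and bars are group means. Alas1 and Fech were high in BBMP 1 and BBMP 2 and near the corn oil livers in BBMP 3, while Uros was higher and Cpox lower in every BBMP liver.

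Alas1, which sets the rate of the pathway, had log2 levels of 8.25, 8.43 and 6.78 in BBMP livers, against 7.15, 6.30 and 6.89 in corn oil livers. BBMP 1 and BBMP 2 lay above every corn oil liver, and BBMP 3 lay inside the corn oil range, so the groups overlapped. The difference was 1.04 ± 0.47 (SE), or 2.06-fold with a 95% interval from 0.944 to 4.48 (limma adjusted p = 0.486). Only 0.644% of all features were higher by 1 or more, but the within-group SD of Alas1, 0.71, also exceeded that of 97.4% of them. Signal was not saturated on any array. Without BBMP 3 the difference was 1.56 ± 0.26, the groups did not overlap (28.9% of all features then did not) and the limma adjusted p was 0.390. Without corn oil 2, the lowest liver, it was 0.80 ± 0.52 (limma adjusted p = 0.808). The difference was also smaller without BBMP 1, at 0.83 ± 0.53 (limma adjusted p = 0.711). Without BBMP 2 it was 0.73 ± 0.48 (limma adjusted p = 0.651).

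Fech, the ferrochelatase that ends the pathway, was highest in the same livers as Alas1. Its log2 levels were 1.84, 1.88 and 1.30 in BBMP livers, against 1.42, 1.097 and 1.24 in corn oil livers. As for Alas1, BBMP 3 lay inside the corn oil range and corn oil 2 was lowest. The difference was 0.42 ± 0.18 (limma adjusted p = 0.480), with a 95% interval from -0.02 to 0.86. It was 0.61 ± 0.14 without BBMP 3 (limma adjusted p = 0.394), 0.34 ± 0.21 without corn oil 2 (limma adjusted p = 0.799) and 0.24 with normexp background correction (limma adjusted p = 0.604). The Fech difference was 0.34 ± 0.21 without BBMP 1 (limma adjusted p = 0.710) and 0.32 ± 0.20 without BBMP 2 (limma adjusted p = 0.641). Without BBMP 3, Alas1, Fech and Uros were at an unadjusted p under 0.05, 3 of 9 members beside 9.8% of all features. BBMP 3 was the lowest BBMP liver for Alas1 and Fech, so leaving it out had to raise both differences. That count therefore says nothing further about these genes.

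Uros, uroporphyrinogen III synthase, which closes the tetrapyrrole ring in its natural isomer, differed by little and evenly. Its log2 levels were -1.40, -1.45 and -1.43 in BBMP livers, against -1.79, -1.69 and -1.84 in corn oil livers. Every BBMP liver was above every corn oil liver, and the within-group SD of 0.058 was larger than that of only 4.26% of features. The difference was 0.35 ± 0.09, with a 95% interval from 0.13 to 0.57 (limma adjusted p = 0.393). It was the smallest p of the members, and 1.27-fold in size. With normexp the difference was 0.15 (limma adjusted p = 0.550), still without overlap.

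Cpox, the mitochondrial coproporphyrinogen oxidase, had log2 levels of 1.24, 1.42 and 1.38 in BBMP livers, against 1.58, 1.77 and 1.55 in corn oil livers. Every BBMP liver was below every corn oil liver. The difference was -0.28 ± 0.11, or 0.821-fold, with a 95% interval from -0.54 to -0.02 (limma adjusted p = 0.440). Corn oil 2 was the highest liver, and without it the difference was -0.22 ± 0.11 (limma adjusted p = 0.753).

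The other members of synthesis differed less. Alad, the cytosolic enzyme that forms porphobilinogen and is known for its inhibition by lead, had log2 levels of 7.97, 8.07 and 8.21 in BBMP livers, against 8.37, 8.13 and 8.12 in corn oil livers. The difference of -0.12 ± 0.12 was within the spread (limma adjusted p = 0.732), and it was -0.0051 with normexp and -0.040 without corn oil 1, the highest liver. Urod, which trims the side chains of uroporphyrinogen, had log2 levels from 5.34 to 5.38 in BBMP livers and from 5.24 to 5.53 in corn oil livers. Its difference was -0.00066 ± 0.11, with a 95% interval from -0.26 to 0.26 (limma adjusted p = 0.999), it was -0.023 without corn oil 2, and its other probe gave 0.0055. The BBMP livers all lay inside the corn oil range. With normexp, however, the Urod difference was -0.12 (limma adjusted p = 0.652) and every BBMP liver was below every corn oil liver.

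In breakdown, Blvra, the biliverdin reductase of adult haem catabolism, had log2 levels of 0.03, -0.16 and 0.25 in BBMP livers, against -0.29, -0.60 and -0.08 in corn oil livers. BBMP 2 was below corn oil 3, so the groups overlapped. The difference was 0.37 ± 0.17 (limma adjusted p = 0.498), 0.23 ± 0.16 without corn oil 2 (limma adjusted p = 0.826). In whole liver RNA, more cells of a type and more RNA per cell cannot be told apart. Macrophages, which degrade the haem of old red cells, had 12 of 13 tested markers higher after BBMP, where 47.5% of all features were higher. The median difference was 0.33, and 0 markers passed the adjusted threshold. At an unadjusted p under 0.05 there were 0 markers, beside 10.8% of all features. Groups without overlap were found for 0 markers, beside 17.9% of all features. The summed signal of that list was 192, 144 and 213 times the 75th percentile in BBMP livers and 128, 145 and 196 times in corn oil livers. Among BBMP livers BBMP 3 was highest and BBMP 2 lowest for this sum and for Blvra. Among corn oil livers corn oil 3 was highest for both, while the sum was lowest in corn oil 1 and Blvra in corn oil 2. Clec4f, which marks Kupffer cells, had log2 levels from 5.77 to 6.03 in BBMP livers and from 5.29 to 6.02 in corn oil livers. Every marker of the list with a probe was well above background in enough livers to be tested. The part of these cells in the Blvra result was not tested.

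Blvrb, a flavin and biliverdin IXβ reductase, was measured by 3 probes, which gave differences of 0.11, 0.10 and 0.07, with limma adjusted p from 0.719 to 0.830. Its main probe had log2 levels from 5.58 to 5.64 in BBMP livers and from 5.36 to 5.61 in corn oil livers, which overlap, and its difference was 0.17 without corn oil 2 and 0.040 without corn oil 3. Hmox2, the constitutive haem oxygenase, had log2 levels of 3.93, 3.97 and 3.74 in BBMP livers, against 3.96 to 4.07 in corn oil livers, which overlap by the BBMP 2 value alone. The difference was -0.13 ± 0.10 (limma adjusted p = 0.670), and a dimmer probe gave -0.29 ± 0.19 (limma adjusted p = 0.610). On both probes BBMP 3 was the lowest liver, and without it the difference of the main probe was -0.060.

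**Figure D2:**
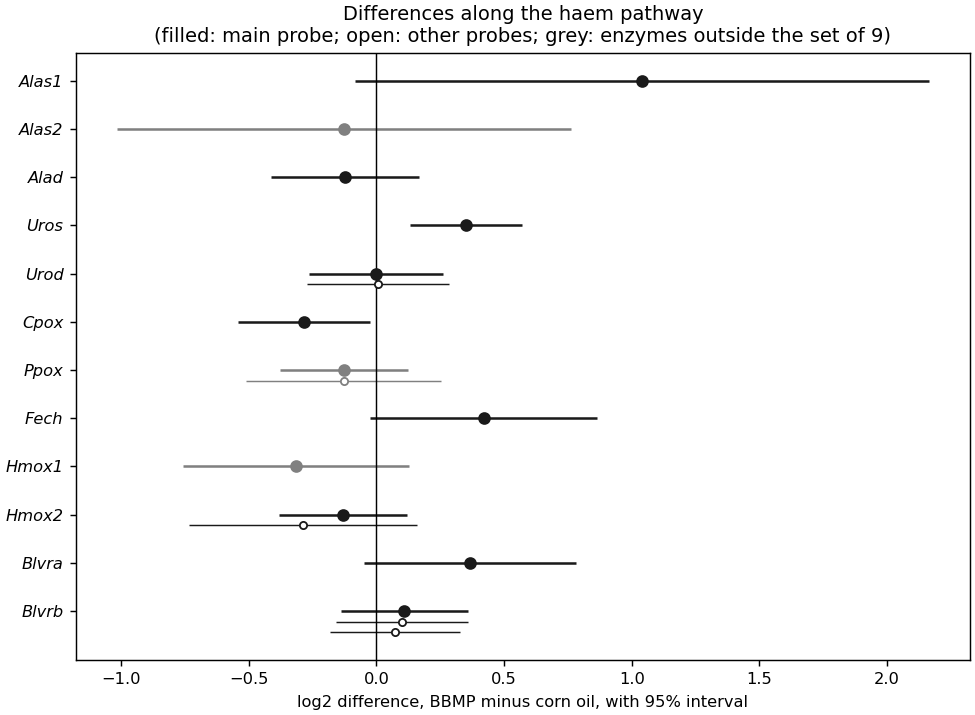
Log2 difference, BBMP minus corn oil, with its 95% interval from limma, for 12 enzyme genes in pathway order; black genes are the 9 followed here and open points are further probes of a gene. The intervals of Uros and Cpox lie clear of 0 on opposite sides, and that of Alas1 is the widest.

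Of the other enzymes, 3 genes were followed, and all 3 had lower means after BBMP, with 0 past the adjusted threshold and 0 at an unadjusted p under 0.05. Ppox, the protoporphyrinogen oxidase, differed by -0.13 ± 0.10 (limma adjusted p = 0.676), and by -0.060 without corn oil 1. Hmox1, the inducible haem oxygenase, had log2 levels of 1.35, 1.35 and 1.56 in BBMP livers, against 1.56, 2.13 and 1.53 in corn oil livers. Corn oil 2 was the high liver here, and the difference was -0.32 ± 0.18 (limma adjusted p = 0.563), or -0.12 ± 0.12 without it (limma adjusted p = 0.875). Alas2, the form of the rate-limiting enzyme made by red cell precursors, had log2 levels of 0.60, 1.93 and 1.15 in BBMP livers, against 0.97, 1.79 and 1.30 in corn oil livers, a difference of -0.13 ± 0.37 (limma adjusted p = 0.920) that was 0.089 without corn oil 2 and 0.19 without BBMP 1. It varied between animals along with the globins: Hba-a1 had log2 levels of 8.64, 9.40 and 8.88 in BBMP livers and 8.88, 9.32 and 9.11 in corn oil livers, highest in BBMP 2 and corn oil 2 like Alas2. Of 9 tested erythroid markers, a list that includes Alas2 itself and the globins, 2 were higher and 7 lower, 0 past the adjusted threshold. Their summed signal was 672 to 1199 times the 75th percentile in BBMP livers and 800 to 1111 times in corn oil livers. Alas1 did not follow that order, being lowest of all in corn oil 2.

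The cytochromes P450 that use this haem were a list of 38 tested genes with their electron donors, of which 23 were higher and 15 lower, with a median difference of 0.09. None passed the adjusted threshold, 7 higher and 4 lower were at an unadjusted p under 0.05, beside 4.7% higher and 6.1% lower of all features, and 13 (34.2%) had groups that did not overlap, beside 17.9% of all features. Cyp2b1, which phenobarbital induces through CAR, had log2 levels of 4.93, 4.76 and 4.60 in BBMP livers, against 4.15, 3.76 and 3.92 in corn oil livers. Its near-copy Cyp2b2 had 6.71, 6.63 and 6.46 in BBMP livers, against 6.03, 5.55 and 5.76 in corn oil livers. Cyp2b15 had 3.00, 2.88 and 2.96 in BBMP livers, against 2.45, 2.24 and 2.38 in corn oil livers. Unlike Alas1, these were above the corn oil livers in BBMP 3 as well, and their differences were 0.82, 0.82 and 0.59 (limma adjusted p = 0.314 for each), though probes of this family can bind each other's transcripts. The other Cyp2b2 probes gave 0.43 to 1.24. Of the genes of this list without overlap, 8 were higher and 5 lower. Among the lower ones, named after their values were seen, Cyp1a2 differed by -1.06 ± 0.30 (limma adjusted p = 0.401). Its other probe gave -0.76, with overlap. Cyp2b3, of the same family as Cyp2b1, differed by -0.19 ± 0.10 (limma adjusted p = 0.532), and its other probe gave -0.21. Por, the reductase that passes electrons to these Cyp2b enzymes, was chosen here after its values were seen. It had 3.87, 4.33 and 3.30 in BBMP livers, against 3.91, 2.65 and 3.83 in corn oil livers, with overlap (difference 0.37 ± 0.41, limma adjusted p = 0.763). Without corn oil 2 the Por difference turned to -0.042 ± 0.31 (limma adjusted p = 0.990).

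Among 10 tested genes known to act on Alas1, 7 were higher and 3 lower with a median of 0.15, and 0 were at an unadjusted p under 0.05. Nr1i3, which encodes CAR, had log2 levels of 3.82, 3.78 and 3.40 in BBMP livers, against 3.76, 2.32 and 2.68 in corn oil livers; corn oil 1 reached the BBMP livers, and the difference was 0.74 ± 0.37 (limma adjusted p = 0.511). It was 0.44 ± 0.34 without corn oil 2 (limma adjusted p = 0.839) and 1.16 ± 0.19 without corn oil 1 (limma adjusted p = 0.335). The other Nr1i3 probes gave 0.48, 0.54 and 0.55 with all arrays. Nr1i2, which encodes PXR, differed by 0.23 ± 0.18 (limma adjusted p = 0.666), and by 0.057 without BBMP 2. Foxo1, a fasting-responsive factor, differed by 0.35 ± 0.23 (limma adjusted p = 0.602), and by 0.19 without corn oil 2.

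The genes whose 6 values, each centred on the gene's own mean, lay closest to those of Alas1 were taken among 11110 named genes by root mean square difference. They were the kinase Pim3 (0.19), the inositol phosphate kinase Ip6k2 (0.21), Rgs1, a regulator of G protein signalling (0.24), C1h11orf24 (0.24) and the small GTPase Arl4a (0.25), where a gene with no variation would stand 0.78 away. Pim3 had log2 levels of 4.82, 5.01 and 3.69 in BBMP livers, against 4.17, 3.28 and 3.86 in corn oil livers, the same order of livers as Alas1. Fech ranked 100 at 0.49, and the other members ranked 1241 or lower. Of the listed cytochromes and partners, Cyp8b1 ranked 69 at 0.46, Por ranked 78 at 0.47 and Cyp2b2 ranked 96 at 0.48. Nr1i3 ranked 98 at 0.49. This ranking is a description over 6 arrays, with no test.

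**Figure D3:**
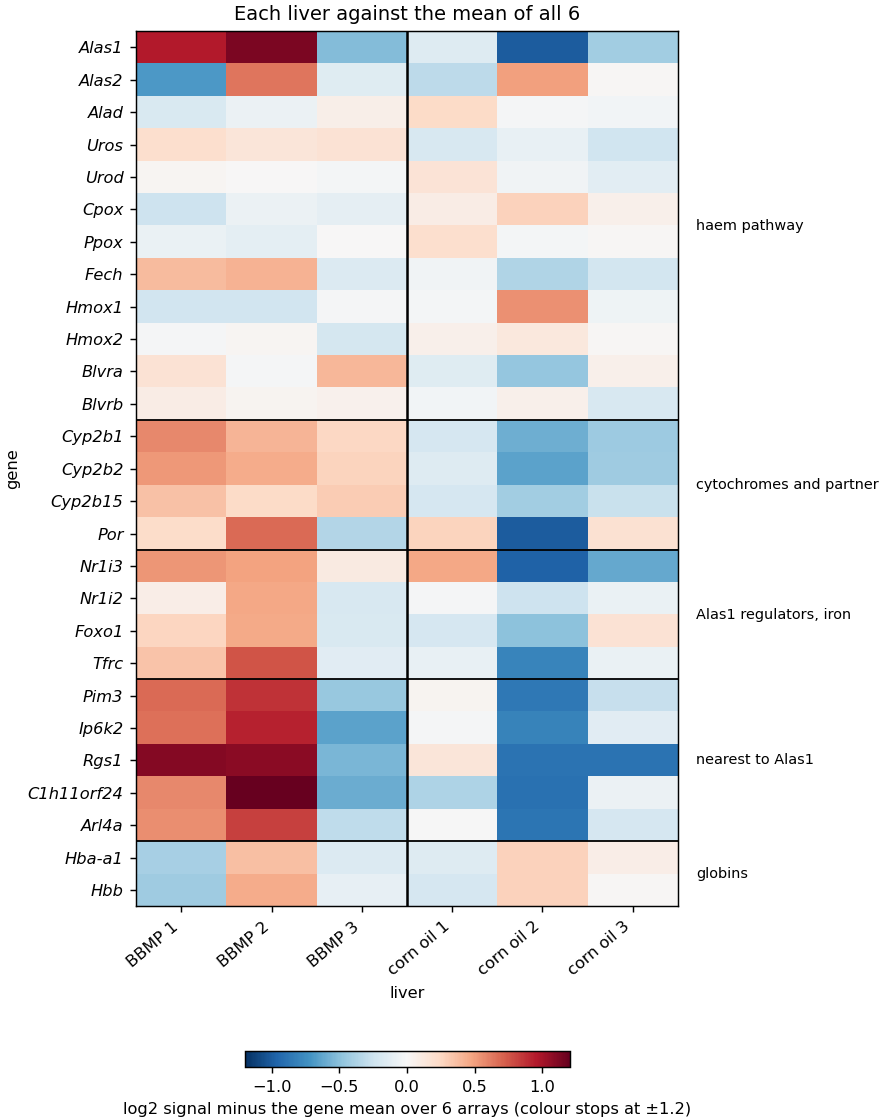
Log2 signal minus the gene's mean over the 6 livers, BBMP livers left of corn oil livers, for the haem enzymes, cytochromes, Alas1 regulators, the genes closest to Alas1 and globins. Alas1 is high in BBMP 1 and BBMP 2, low in corn oil 2 and below its mean in BBMP 3, an order shared by Pim3 and Arl4a; Cyp2b1, Cyp2b2 and Cyp2b15 are above their means in every BBMP liver, and Alas2 follows the globins.

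Around the pathway, carriers of haem and porphyrins and plasma haem binders were 14 tested genes, 4 higher and 10 lower, with a median of -0.11. Hpx, hemopexin, which returns plasma haem to the liver, had log2 levels of 9.04, 9.00 and 9.00 in BBMP livers, against 9.12, 9.36 and 9.32 in corn oil livers, a difference of -0.25 ± 0.10 (limma adjusted p = 0.457). Slc46a1, a folate and haem carrier, differed by -0.41 ± 0.18 (limma adjusted p = 0.476), and by -0.23 ± 0.12 without corn oil 2 (limma adjusted p = 0.767). Slc48a1, which moves haem out of lysosomes, differed by 0.31 ± 0.15 (limma adjusted p = 0.501), and by 0.20 without BBMP 3.

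Iron supply gave 7 of 9 tested genes of mitochondrial iron and iron-sulfur assembly higher, with a median of 0.07 and 0 at an unadjusted p under 0.05. The mitochondrial iron importer Slc25a37 differed by 0.23 ± 0.10 (limma adjusted p = 0.480), the assembly factor Isca1 by 0.16 ± 0.09 (limma adjusted p = 0.567) and the co-chaperone Hscb by 0.11 ± 0.10 (limma adjusted p = 0.698). The other Isca1 probe gave -0.047, with overlap. In cytosolic iron handling 3 of 12 tested genes were higher and 9 lower. Slc11a2, the divalent metal importer DMT1, had log2 levels of 1.24, 1.18 and 1.13 in BBMP livers, against 1.60, 1.56 and 1.66 in corn oil livers, and its difference was -0.42 ± 0.09 (limma adjusted p = 0.352), while its other probes gave -0.29 and 0.02. Tfrc, the transferrin receptor, differed by 0.64 ± 0.29 (limma adjusted p = 0.486) and was highest in BBMP 2 and lowest in corn oil 2, as Alas1 was; the difference was 0.41 without corn oil 2 and 0.43 without BBMP 2. The main probe of the ferritin light chain Ftl1 gave -0.20 ± 0.10, and its other 4 probes gave 0.02 to 0.11.

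Other haem proteins were 10 tested genes, 6 higher and 4 lower. Tdo2, the tryptophan dioxygenase, had log2 levels of 6.57, 7.28 and 6.24 in BBMP livers, against 5.89, 5.73 and 6.31 in corn oil livers, a difference of 0.72 ± 0.29 (limma adjusted p = 0.457) with overlap through BBMP 3, and 0.43 without BBMP 2. Catalase, Cat, differed by 0.33 ± 0.13 (limma adjusted p = 0.446), and the desaturase Fads2 by -0.43 ± 0.18 (limma adjusted p = 0.463), or -0.28 without corn oil 3. In bilirubin disposal 4 of 7 tested genes were higher. The canalicular pump Abcc2 differed by -0.37 ± 0.09 with no overlap (limma adjusted p = 0.384), the uptake carrier Slco1b2 by -0.41 ± 0.18 (limma adjusted p = 0.480) and the basolateral pump Abcc3 by 0.39 ± 0.17 (limma adjusted p = 0.470).

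**Figure D4:**
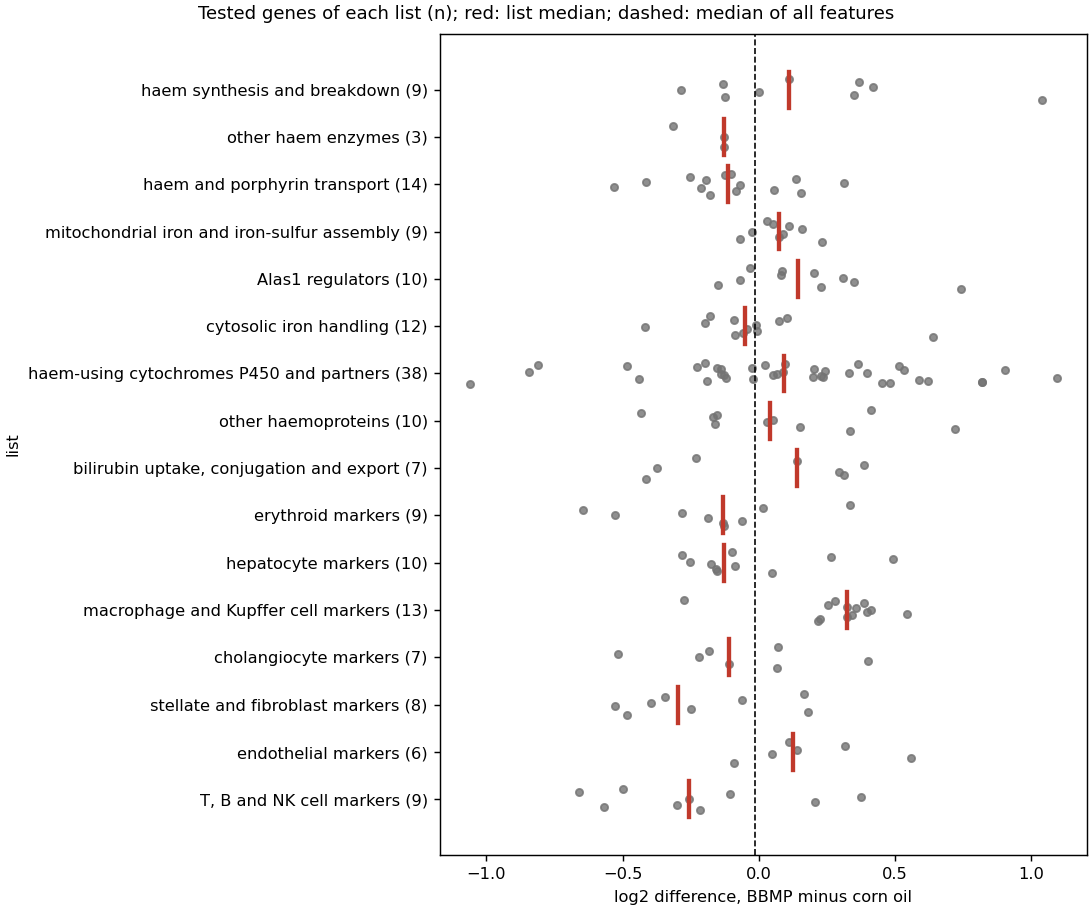
Log2 difference, BBMP minus corn oil, of each tested gene by list, with the number tested, the list median in red and the median of all features dashed. The 9 haem genes have a median of 0.11 with Alas1 far to the right. The macrophage markers lie to the right of 0 in 12 of 13 cases, as do 47.5% of all features, and 0 of these markers had groups without overlap.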

How the data were processed

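Liver RNA of 6 rats was measured, 1 array per animal, so p-values measure the spread between these animals. Per the labels' protocols, Cy3-labelled RNA was made from 0.2 µg of total RNA, and per the submitters' processing notes the scans were read with Agilent Feature Extraction 10.7. The deposited scanner files give an intensity per spot (per the file headers the processed signal, background-corrected), and the deposited value table, with its scale unstated, equals that intensity divided by 1 constant per array near the 75th percentile.

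Control spots and 84 spike-in probes were removed from 62976 spots. Signals were put on a log2 scale and the array's 75th percentile subtracted. Probes were named through their accession in the RefSeq GRCr8 table: 27460 of 61573 matched, covering 15284 genes, and other probes stayed under their own ID. A gene is represented by its brightest probe, and a feature was tested if well above background on all 3 arrays of a group. Limma 3.58.1 in R 4.3.3 (lmFit, eBayes, no covariate) compared BBMP with corn oil, with Benjamini-Hochberg adjustment over 28112 features. The procedure was tested on simulated data. Normexp used the median spot signal, the column at hand.

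The members and all lists were chosen with earlier results of these data known. Named are all members and other haem enzymes (1 listed gene is not reported here), up to 3 genes of each further list with the smallest unadjusted p, the 2 brightest genes of cell type lists where used, and the 5 genes closest to Alas1. Alternatives were other background correction, scaling, filters, probe rules and variance model, the value table, a replicate block and leaving out each array.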

Additional observations from a re-analysis of the deposited data

How the results depend on the processing

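No member passed the adjusted threshold in limma under any of 16 alternatives, 10 with every array and 6 leaving out 1, with 2 to 3 members at an unadjusted p under 0.05 in the settings with every array except 1 with no filter. These were not always Uros and Cpox. With normexp they were Cpox and Blvra, with median scaling Uros and Fech, and with no filter Uros alone. Fech joined Uros and Cpox with the other variance model, and Blvra joined them with the replicate block. Over all features, 2 passed with all arrays, 0 with normexp (3252 at an unadjusted p under 0.05), 1 with no filter, 0 with the filter on all 6 arrays (2835) and 0 to 4 when 1 array was left out, with 0 without corn oil 3 (3002) and 4 without corn oil 2. Members at an unadjusted p under 0.05 numbered 1 to 3 when 1 array was left out, 1 without corn oil 1, corn oil 2 or BBMP 1 (11.4%, 6.88% and 7.99% of all features) and 3 without corn oil 3 or BBMP 3 (10.68% and 9.8%). Members without overlap numbered 5 with normexp (17.5% of all features), 3 with quantile normalization (18.1%) and 2 to 5 when 1 array was left out, with 5 without BBMP 3 (28.9%) and 4 without corn oil 1, corn oil 3 or BBMP 2 (31.5%, 30.9% and 28.7%). The median difference over the members was 0.040 to 0.17 when 1 array was left out, lowest without corn oil 3. Of 144 values of members, 4 turned direction, all of Urod, whose difference was 0.014 with median scaling, 0.0024 with the mean of probes, 0.084 without corn oil 1 and 0.013 without BBMP 3, in a range of -0.063 to 0.084 when 1 array was left out. The groups share replicate numbers. Deviations of same-numbered animals correlated at 0.0894, 0.0159 and 0.0719, and those of differently numbered animals at -0.104 to 0.0329. These values do not decide whether the numbers pair the animals, and the main fit did not pair them. With the replicate block 0 features passed (3235 at an unadjusted p under 0.05) and 3 members were at an unadjusted p under 0.05. All 13 probes of the members were well above background on all 6 arrays, and Uros differed by 0.15 with normexp. Leaving out arrays for genes that are no members was chosen after seeing the data. The cause of these changes was not tested.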

Other observations

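Other cell types of the liver were followed by marker lists, and no marker passed the adjusted threshold in limma. Of 8 tested stellate cell and fibroblast markers, 2 were higher and 6 lower after BBMP, 3 of them at an unadjusted p under 0.05 (6.1% of all features were lower at this p), and their summed signal was 38.4 to 44.6 times the 75th percentile in BBMP livers and 46.7 to 51.5 times in corn oil livers, without overlap. Endothelial markers were higher in 5 of 6 tested genes, with sums of 49.9 to 59.0 in BBMP livers and 45.0 to 58.3 in corn oil livers. Markers of T, B and NK cells were lower in 7 of 9 tested genes, with sums of 3.59 to 4.96 in BBMP livers and 4.89 to 5.60 in corn oil livers. Cholangiocyte markers were higher in 3 and lower in 4 of 7 tested genes, with sums of 2.30 to 2.45 in BBMP livers and 2.07 to 2.35 in corn oil livers.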
